A study of Homo sapiens with 2 samples.

Results

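The features described here are 81 annotated regions of the CHM13 v1.1 human genome that are 200 to 230 bases long, consist of 1 exon and had at least 10 read counts over both libraries. They were drawn from 563 features of that length and structure, after 40 others had been left out (those on the first part of chromosome 1 up to 75700000, those on the short arms of chromosomes 13, 14, 15, 21 and 22 up to 10000000, and 4 named features that hold or adjoin copies of the U3 small nucleolar RNA). The whole annotation holds 63494 features. Members were thus chosen by their length and by their summed counts in these libraries, so which features passed depends on the values that are then compared. The study asked which RNA is bound by the Ku70/80 heterodimer in HEK293T, an established human embryonic kidney cell line, and used PAR-CLIP, in which RNA that has taken up a photoreactive nucleoside is crosslinked to the protein it touches in the living cell and purified with it. One library came from cells stably expressing SFB-Ku80, which is Ku80 with an S-tag, FLAG and streptavidin-binding tag, and 1 from cells stably expressing the SFB empty vector, called the vector control below. Both kinds of cells were given 0.1 mM 6SG (6-thioguanosine) and 0.4 J of UV per cm2 at 365 nm, and both lysates were taken over streptavidin resin and then Flag resin. Endogenous Ku80 was present in both, and the expressed Ku80 is a tagged transgene.

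Ku70 and Ku80 form a ring that binds the ends of broken DNA and recruits the catalytic subunit DNA-PKcs to start repair by end joining, and the ring is also known to hold structured RNA such as the RNA subunit of yeast telomerase. Single-exon features of this size in the human annotation are mostly pseudogenes, which are inactive copies of genes often made by reverse transcription of an RNA, and small nucleolar RNAs (snoRNAs), which guide the chemical modification or the cutting of ribosomal RNA in the nucleolus. Many snoRNAs and other small RNAs have left scattered copies in the genome, and a read from such an RNA can be placed at a copy when the sequences are alike.

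With 1 library for each condition, the comparison of SFB-Ku80 and the vector control has no replicate check, and no p-value is given. The library of the vector control held 29863974 read pairs and 19775629 counts on features, and that of SFB-Ku80 held 22173753 read pairs and 17892815 counts. Pairs without a place in the genome made up 21.5% of the first and 47.1% of the second, and 2 features alone took 46.0% of the counts of SFB-Ku80. Ratios are therefore given relative to the median feature. For each feature the log2 ratio of SFB-Ku80 to the vector control was taken with a pseudocount of 1, and the median of all 32573 features with at least 10 counts was set to 0, which removed a shift of -1.07 in the log2 ratio of the counts. Intervals are 95% intervals for counting error only. They treat counts as independent molecules, which reads of 1 pair, multimapping reads counted at several places and PCR copies are not, so they are too narrow. The count tables carry no gene names, so the members are given by position, and neither the markers of the cell line nor the RNA of the tagged Ku80 was read by name here.

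For the first part of chromosome 1, the annotation table that accompanies the study names such features. It lists 13 single-exon features of 200 to 230 bases there, none of which is a member: 10 pseudogenes, 2 snoRNAs and 1 long noncoding RNA. The pseudogenes had 11 counts in the vector control and 0 in SFB-Ku80 over all 10. SNORA73B, a snoRNA of 204 bases that takes part in ribosomal RNA processing, had 43306 counts in the vector control and 42383 in SFB-Ku80, a log2 ratio of 1.04 relative to the median feature. Its neighbour SNORA73A, of 206 bases, had 0 counts in both libraries. No genome sequence of CHM13 was used here, so no sequence of a member is printed and no member was given a name.

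Together the 81 members took 12154 counts in SFB-Ku80 and 3154 in the vector control. Of the counts outside the 45S ribosomal RNA units this was 0.0837% in SFB-Ku80 (Wilson interval 0.0823 to 0.0853%) and 0.0164% in the vector control (0.0159 to 0.0170%). Their share in SFB-Ku80 was thus 5.10 times that in the vector control (log-normal counting interval 4.90 to 5.30), and most of this came from a few members. The 4 members with the most counts in SFB-Ku80 held 66.6% of the members' counts in that library and 2.95% in the vector control. Without the member with the most counts the ratio of the shares was 3.30, and without the 5 with the most counts 2.19. Without the 18 members at least 16-fold above the median feature, which were left out for their ratios, it was 0.852 (0.805 to 0.903).

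The members did not move as one group. Their median log2 ratio was 0.39, against 0 for all features and 0.37 for the 6512 single-exon features with at least 10 counts. This centre was not the same with other counters, which came with their own filter and so with another set of features. In uniquely mapped pairs it was 4.38, over the 40 features of this length with at least 10 pairs, and in the pairs of the second strand column 6.13, over 37. Of the 81 members, 36 had no unique pair in SFB-Ku80. How much of the shift came from the counter and how much from the filter was not tested. At least 2-fold above the median feature were 34 of the 81 members (42%), where 25.7% of all features and 35.4% of single-exon features were. At least 2-fold below were 26 members (32.1%), where the shares were 27.4% and 23.9%. The share furthest from that of other features was at the top of the range. At least 16-fold above the median feature, a limit chosen after the values had been seen, were 18 members (22.2%), against 0.703% of all features and 2.04% of single-exon features. The 18 had a median of 3.5 counts in the vector control. Most of them thus passed the limit of 10 counts only through SFB-Ku80, and their share is given as a description. Among the 22 members with at least 100 counts, 12 were at least 16-fold above (54.5%), where 0.441% of all features with at least 100 counts were. All 12 had at most 29 counts in the vector control, so they passed the limit of 100 counts only through SFB-Ku80. At this level of counts 17 members were at least 2-fold above (77.3%, against 19.2% of features) and 3 at least 2-fold below (13.6%, against 33.6%). These shares partly restate the limit and are given as a description.

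**Figure D1:**
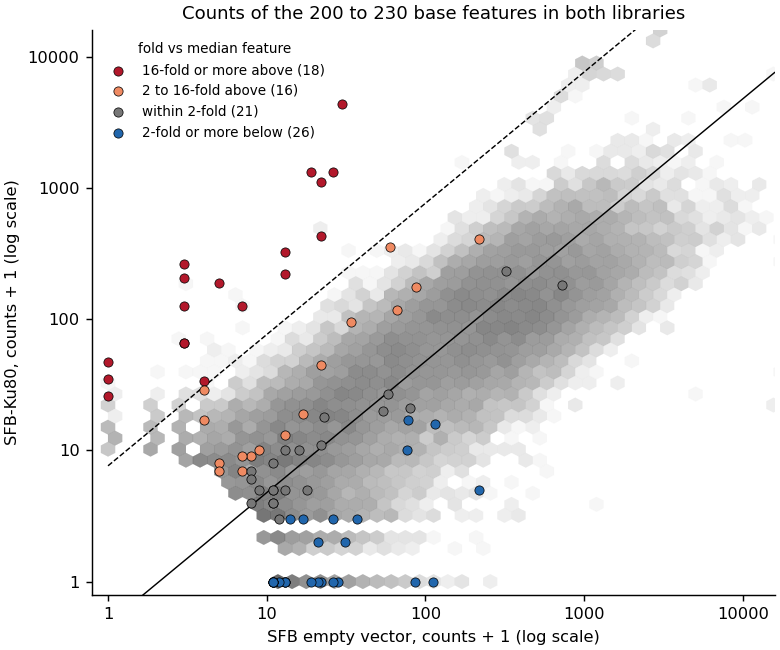
Counts plus 1 in SFB empty vector (x axis) and SFB-Ku80 (y axis), both on log scales, for the 81 members (points, coloured by fold relative to the median feature) over all features with at least 10 counts (grey hexagons, darker for more features; those beyond the axes are not drawn). The solid line marks the median feature and the dashed line 16-fold above it, and 18 members lie above the dashed line while 26 lie at least 2-fold below the solid one.

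The 18 members far above the median feature had 25 to 4357 counts in SFB-Ku80 (median 195.5) and 0 to 29 in the vector control (median 3.5). Their log2 ratios ran from 4.16 to 8.25. Each had more counts in SFB-Ku80, and 12 had over 100 there while none had more than 29 in the vector control. These ratios chose the group, and they are given as a description.

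CHM13_G0050102, on the plus strand of chromosome 7 from 25400072 to 25400298 and 227 bases long, had the highest count and the highest ratio of all members. It reached 4357 counts with SFB-Ku80 and 29 with the vector control, which put it 305-fold above the median feature (log2 ratio 8.25, exact counting interval 7.78 to 8.88). It alone held 35.8% of the members' counts in SFB-Ku80 and 0.919% in the vector control. No other feature overlaps it.

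The next 3 by count in SFB-Ku80 had similar levels. A feature of 204 bases on the plus strand of chromosome 1, from 163269241 to 163269444, reached 1316 counts with SFB-Ku80 and 18 with the vector control (log2 ratio 7.19, interval 6.60 to 8.02). Another on the minus strand of chromosome 6, from 72307312 to 72307524, had 1310 and 25 (6.73, 6.21 to 7.42). One of 209 bases on the minus strand of chromosome 15, from 67280021 to 67280229, had 1107 and 21 (6.72, 6.17 to 7.49). The intervals of these 3 ratios overlap, and that of the chromosome 7 feature overlaps only that of the chromosome 1 feature. All 4 lie outside every other annotated feature.

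Further members had the same direction at lower counts. The feature of 216 bases at 116286630 to 116286845 on chromosome 1 reached 425 counts with SFB-Ku80 and 21 with the vector control (log2 ratio 5.35, interval 4.78 to 6.12). CHM13_G0052468, on the plus strand of chromosome 7 from 149569567 to 149569781, had 262 and 2 (7.52, 6.24 to 11.16). The feature of 216 bases at 71159636 to 71159851 on chromosome X had 204 and 2 (7.16, 5.87 to 10.80). With 2 counts in the vector control these last ratios are loosely set, as the width of their intervals shows.

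In 3 of the 18 no read was counted in the vector control, so that their ratios have no upper end. The feature at 3415175 on chromosome 20 held 46 SFB-Ku80 counts, which gives a log2 ratio of 5.01 against 3 counts in the vector control and 4.65 at the lower end of the exact counting interval. That at 111739161 on chromosome 3 had 34 (4.57 against 3 counts, with a lower end above 4), and that at 162051433 on chromosome 4 had 25 (4.13, lower end 3.72), which falls below the limit of 4. These were named for their 0 counts after the values had been seen. Over all 18, the lower end of the counting interval was above 4 for 16. The one nearest to the limit from within, at 49245840 on chromosome 17, had 33 and 3 counts (4.16, 2.86 to 6.88), and the nearest from outside, at 45271775 on chromosome 3, had 28 and 3 (3.93, 2.60 to 6.65). These 2 do not differ beyond counting error, so the limit cuts through a continuous range.

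**Figure D2:**
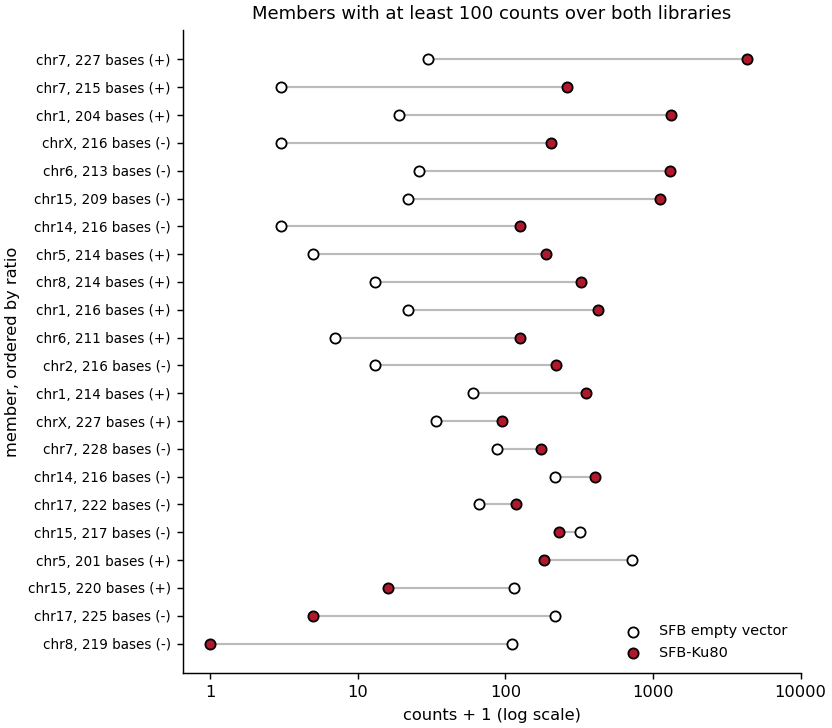
Counts plus 1 on a log scale in SFB empty vector (open points) and SFB-Ku80 (filled points) for the 22 members with at least 100 counts, ordered by ratio and labelled by chromosome, length and strand. The upper 12 members have at most 29 counts in SFB empty vector and at least 124 in SFB-Ku80, and the lowest member has 110 and 0.

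Of the 16 members between 2 and 16-fold above the median feature, 11 had no more counts in the vector control than the 29 reached by the 18 high members, and 5 had more. The most counted, 216 bases long on the minus strand of chromosome 14 from 85944384 to 85944599, reached 405 counts with SFB-Ku80 and 216 with the vector control (log2 ratio 1.97, interval 1.74 to 2.22). The group had 3 to 216 counts in the vector control and 6 to 405 in SFB-Ku80, and 7 of the 16 had under 20 counts in all. The 21 members within 2-fold of the median feature took 1418 counts in the vector control, and 571 in SFB-Ku80. The member with the most counts in the vector control is among them. It is 201 bases long, lies on the plus strand of chromosome 5 from 173560836 to 173561036, and had 720 counts in the vector control and 181 in SFB-Ku80 (-0.92, -1.16 to -0.68). The second by that order, of 217 bases on chromosome 15 from 82226214 to 82226430, had 320 counts in the vector control, which is 16.7 ppm of the counts outside the 45S units, and 15.9 ppm in SFB-Ku80, a ratio within 2-fold of the median feature (0.60, 0.35 to 0.85).

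The 26 members at least 2-fold below the median feature had 10 to 217 counts in the vector control (median 20) and 0 to 16 in SFB-Ku80 (median 0). In SFB-Ku80, 16 of them had 0 counts, and 12 had under 20 counts over both libraries, so many of these ratios rest on the pseudocount. With the zeros set to 3 counts the median log2 ratio of the 26 was -1.59 in place of -2.53. CHM13_G0053043, on the minus strand of chromosome 8 from 12925263 to 12925481, had 110 counts in the vector control and 0 in SFB-Ku80. Its log2 ratio is -4.13 with 3 counts in place of 0, and the upper end of the exact interval is -3.80. CHM13_G0024006, 225 bases long on the minus strand of chromosome 17 from 36544826 to 36545050, had 217 and 4 (log2 ratio -4.38, interval -6.58 to -3.31). The feature of 220 bases on chromosome 15 from 34658114 to 34658333 had 114 and 15 (-1.78, -2.74 to -1.07).

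Several members that were higher in the vector control resemble each other in length and counts. On chromosome 8 between 11673283 and 12931628 lie 7 members whose lengths differ by at most 1 base, all on the minus strand, and 3 pairs of them have starts 6127 or 6148 bases apart. They had 15 to 110 counts each in the vector control, 367 in all, and 0 to 9 in SFB-Ku80, 22 in all, and 6 of the 7 were at least 2-fold below the median feature. Uniquely mapped pairs on the 7 numbered 127 in the vector control and 0 in SFB-Ku80. On chromosome 2, 4 members of equal length had exactly 10 counts each in the vector control and 0 in SFB-Ku80, with no uniquely mapped pair in either library. On chromosome 16, 2 members of equal length likewise had 12 and 0 counts each and no unique pair. The counts of the sets on chromosomes 2 and 16 come from multimapping reads counted at each place, so they are not separate observations. The chromosome 8 set had unique pairs in the vector control, so its counts there are not all of this kind. These sets were singled out after their values had been seen, apart from 12925263 and 12931411 on chromosome 8, which the rule for neighbouring members names.

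The annotation's 2 kinds of ID split the members as well. IDs that begin with CHM13 belong to 64 members and had a median log2 ratio of 1.05, and all 18 of the members at least 16-fold above are among them. IDs that begin with LOFF belong to 17 members, of which 12 were at least 2-fold below, with a median of -2.39 (-0.67 with zeros at 3 counts). These 12 include all 4 members of equal length on chromosome 2 described above, and members of the similar sets on chromosomes 8 and 16. The 12 are thus not all separate observations, and the median counts each of them singly. Over all features the order was the other way, with medians of -0.02 for CHM13 and 0.53 for LOFF. At least 2-fold below were 70.6% of the LOFF members, against 21.7% of all LOFF features with at least 10 counts. For CHM13 these shares were 21.9% and 27.6%. At least 16-fold above were 28.1% of the CHM13 members, against 0.603% of all CHM13 features. Among LOFF features 3.63% were as high, and no LOFF member was. This split was looked at after the values had been seen.

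Within the range of lengths the high ratios were not spread evenly. Of the members of 200 to under 220 bases, 17 of 59 were at least 16-fold above the median feature (28.8%). Of those of 220 to 230 bases 1 of 22 was (4.55%), the chromosome 7 feature of 227 bases. Of single-exon features just outside the range, under the same exclusions, 3 of the 96 of 170 to under 200 bases were as high (3.13%) and 0 of the 70 of over 230 to 260 bases. The median log2 ratios were 0.69 for the shorter members and -0.66 for the longer ones, -0.73 for the shorter neighbours and -0.31 for the longer ones. The split at 220 bases was chosen after the values had been seen, and the range of 200 to 230 bases was itself chosen with earlier results of these data known, so these shares are a description of where the high features lie. Of all features of these lengths under the same exclusions, 59 of 388 shorter and 22 of 175 longer ones had the 10 counts that made them members.

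**Figure D3:**
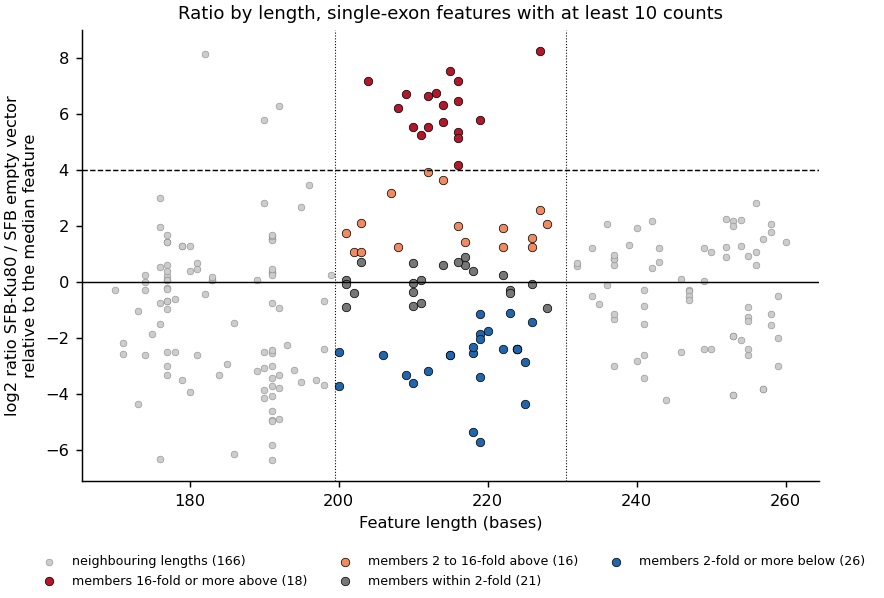
Log2 ratio of SFB-Ku80 to SFB empty vector relative to the median feature (y axis) against feature length in bases (x axis) for single-exon features with at least 10 counts. The 81 members lie between the dotted lines and 166 features of neighbouring lengths outside them; above the dashed line at 4 are 18 members and 3 neighbours, all 3 of them under 200 bases.

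The counts above include reads that map to several places, and the deposited tables also give the read pairs that map to 1 place only. On the 81 members there were 7818 such pairs in SFB-Ku80 and 881 in the vector control. As a share of all unique pairs on features this was 37.3 times the level of the vector control. Most of it came from the 18 members at least 16-fold above, with 7332 and 88 of these pairs. The ratio of the shares was 350 for the 18 and 13.8 for the members between 2 and 16-fold above. It was 1.08 for those within 2-fold and 0.221 for those at least 2-fold below. These groups were formed by the ratios of the counts. All of the 18 members at least 16-fold above had more unique pairs in SFB-Ku80, with 14 to 3336 (median 115), against at most 14 in the vector control. The chromosome 7 feature at 25400072 had 3336 and 9, that on chromosome 15 at 67280021 had 1024 and 14, and that on chromosome 1 at 163269241 had 847 and 11. The counts that chose the 18 include the reads of these pairs, so the pairs are no separate support for the ratios. The high ratios of the 18 are present in reads placed at 1 locus, although whether a pair truly came from that locus or from a near copy was not tested.

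The 18 had few counts for each unique pair. In SFB-Ku80 the median was 1.29 counts per pair, from 1.00 to 5.37, and their summed counts were 1.39 per pair. Over all features the summed counts were 12.4 per pair in SFB-Ku80 and 3.26 in the vector control. A count here is 1 read of a pair, and a value near 1 means that the counts were about as many as the unique pairs. Whether 1 mate of each unique pair was counted, and how much multimapping reads added, was not tested. In contrast, the member at 150503639 on chromosome 7 had 174 counts and 2 unique pairs in SFB-Ku80, so its counts come almost wholly from multimapping reads. It was picked out after its values had been seen. Over all members, 14 had no unique pair in either library.

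The strand of the unique pairs was not used in choosing the members, and it differed between the groups. The tables give unique pairs for each strand, and the second strand column, which held 75.1% of the stranded pairs on all features in the vector control and 67.6% in SFB-Ku80, was taken as the feature's own strand. On the 18 members at least 16-fold above, 7277 of 7336 stranded pairs in SFB-Ku80 were on the feature's own strand, which is 99.2% (Wilson interval 98.96 to 99.38%). In the vector control 87 of 88 were (98.9%, 93.8 to 99.8%). The share in SFB-Ku80 was at least 95% in 17 of the 18, with the lowest at 94.6% on the chromosome 8 feature from 98484000 to 98484213, and it was 100% in 9. Among all 15229 features with at least 10 stranded pairs in SFB-Ku80, 5.31% reached 95%. Among the 39 other features at least 16-fold above that had enough pairs, under the same exclusions, 9 did (23.1%). Of the 20 of these with a single exon, as the members have, 6 did (30%). High shares were not limited to the 18 among the members. Of all members with at least 10 stranded pairs in SFB-Ku80, 23 of 25 reached 95%. This held for 4 of 5 between 2 and 16-fold above and 2 of 2 within 2-fold. No member at least 2-fold below had 10 such pairs.

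The members at least 2-fold below were mixed. In the vector control 166 of their 270 stranded pairs were on the feature's own strand (61.5%, 55.6 to 67.1%), and in SFB-Ku80 4 of 14 (28.6%, 11.7 to 54.6%), where 7 of the 14 came from the member at 144437788 on chromosome 8, all on its other strand. Among the 11 of these members with at least 10 stranded pairs in the vector control the own-strand share ran from 5% to 100% (median 59.4%) and reached 95% in 2. The 7 similar members of chromosome 8 described above were at 79.5%. On CHM13_G0024006 of chromosome 17, 19 of the 20 stranded pairs of the vector control were on the other strand, which is the strand of the longer feature that encloses it. The members within 2-fold were at 89.9% in the vector control and 89.7% in SFB-Ku80.

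**Figure D4:**
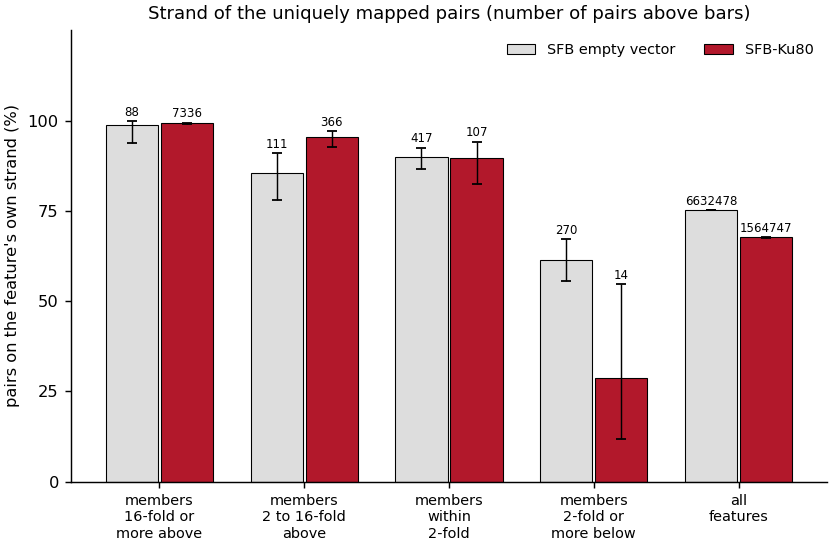
Percent of stranded, uniquely mapped pairs that lie on the feature's own strand (y axis, bars from 0) in SFB empty vector (grey) and SFB-Ku80 (red) for the 4 groups of members and all features, with 95% Wilson intervals and the number of pairs above each bar. Members at least 16-fold above reach 98.9 and 99.2%, and members at least 2-fold below 61.5 and 28.6%.

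The 18 high members were scattered over the genome. They lie on 13 chromosomes, with at most 3 on any of them and no pair closer than 21023741 bases, and 10 are on the plus and 8 on the minus strand. The 81 members as a whole lie on 21 chromosomes, with the largest number, 12, on chromosome 8. Of these 12, 9 were at least 2-fold below and 1 at least 16-fold above, where 27.4% and 0.703% of all features were. Among the 9 are 6 of the 7 similar minus-strand members described above. By position, 41 members overlap no other feature, 39 lie inside the span of a longer feature without touching its exons, which places them in introns, and 1 overlaps an exon. Of the 18, 10 lie alone, 5 in an intron on the same strand as the longer feature and 3 on the opposite strand.

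For the 8 of the 18 that lie in introns, the counts of the enclosing feature can be set beside their own. The enclosing features had log2 ratios from -2.63 to 1.75 (median 0.90), against 4.16 to 7.52 for the members within them, and each member lay at least 3.34 above its enclosing feature on the log2 scale. The feature around CHM13_G0052468 on chromosome 7 reached 43 counts with SFB-Ku80 and 176 with the vector control, while the member had 262 and 2. The feature around the member at 93331053 on chromosome 6 had 0 and 12, while the member, 211 bases long, had 124 and 6. The high ratio was therefore not shared by the exons of the enclosing features. Reads in the rest of the introns were not counted and are not described here.

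A further 482 features of the same length and structure stayed under 10 counts and are not members. Of these 297 had 0 counts in both libraries, 73 had more counts in SFB-Ku80 and 100 more in the vector control, for 233 and 314 counts in all. The 7 members at exactly 10 counts had 4 to 10 in the vector control and 0 to 6 in SFB-Ku80, and the 4 features at 9 counts just outside had 0 to 9 in each.

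The count limit also leaves out features that the counting could not see. Reads that touch the exons of several features were assigned to none, and strand was not used, so a feature inside an exon on the other strand has few or no counts whatever its RNA level. Of the 482, 71 overlap an exon of another feature, and 65 of these had 0 counts. The pairs counted by strand are not affected by a feature on the other strand, and 4 of the 482 had at least 10 pairs on their own strand. The feature of 216 bases on the minus strand of chromosome 8, from 124311446 to 124311661, had 841 such pairs in SFB-Ku80 and 15 in the vector control, with 1 and 0 counts. That of 216 bases on the minus strand of chromosome 15, from 56562447 to 56562662, had 367 and 7 pairs and 0 counts. That of 204 bases on the minus strand of chromosome 14, from 57858690 to 57858893, had 93 and 2, and that of 212 bases on the minus strand of chromosome 5, from 150232295 to 150232506, had 47 and 3. In all 4 the overlapping exon is on the plus strand. These features were found after the values had been seen and were chosen by their own-strand pairs, which 3 of them reached only through SFB-Ku80, so their direction and strand are a description.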

How the data were processed

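PAR-CLIP RNA from HEK293T cells with SFB-Ku80 and with SFB empty vector was sequenced, with 1 library each. Per the file headers, the authors obtained the deposited counts from featureCounts 2.0.2 on a STAR alignment (2.7.6a in the submitters' processing notes) to the CHM13 draft 1.1 and its annotation, requiring both mates mapped, counting multimapping reads and not using strand. The options for pairs also set a minimum fragment length of 18. The authors deposited STAR counts of uniquely mapped pairs as well, whose rows for unmapped, multimapping, unassigned and ambiguous pairs (79.7% in SFB empty vector, 93.5% in SFB-Ku80) were kept out. The rDNA bin files and the study's own count columns were not used.

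Members and lists were chosen with earlier results of these data known. Scripts in Python 3.11.15 (pandas 2.3.3, scipy 1.17.1) computed log2 ratios with a pseudocount of 1, centred on the median of all features with at least 10 counts, shares of the counts outside 219 45S units (features of that length on the acrocentric short arms), exact and Wilson intervals, and overlaps. A fold against 0 uses 3 counts in that library. The ratio was tested on simulated counts. Folds below 16 were planted there, only in features with at least 100 expected counts. Higher folds and changes in features with fewer counts were not covered. Members are named if among the 5 highest by count or unique pairs in a library, or by highest or lowest ratio with at least 100 counts, or within 10000 bases of another such member. Alternatives changed the counter, scaling (edgeR 4.0.16 TMM, DESeq2 1.42.0 size factors), filter, pseudocount of 5, overlap and single members. The planned length windows of 200 to 213 and 214 to 219 bases, in which 8 of 32 and 9 of 27 members were at least 16-fold above, were joined to 1 for the report.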

Additional observations from a re-analysis of the deposited data

How the results depend on the processing

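No paired analysis was possible because there is 1 library a condition. The median log2 ratio of the members (0.39) stayed between 0.31 and 0.41 with TMM or median-of-ratios scaling, a pseudocount of 5, a limit of 1 count (266 features), no exon overlap, or without the most counted member. It was 4.38 in STAR's unstranded unique pairs, 6.13 in the second strand column and 5.54 with at least 100 counts, where fewer features are left. Each other filter or counter chose its own features of this length, so some of them are no members. Those at least 2-fold above (34 of 81, 42%, against 25.7% of features) became 17 of 22 with at least 100 counts (77.3%, against 26.8%). With at least 1 count they were 105 of 266 (39.5%, against 27.7%). Each share of features is over those that passed the same filter, centred on their own median. At 100 counts it thus differs from the share given above. Those at least 2-fold below (26 of 81, 32.1%, against 27.4% of all features) became 8 of 40 in unique pairs (20%, against 23.4%). They were 5 of 37 in the second strand column (13.5%, against 21.7%) and 3 of 22 with at least 100 counts (13.6%, against 25.3%). They were 50 of 266 with at least 1 count (18.8%, against 25.1%) and 16 of 81 with a pseudocount of 5 (19.8%, against 24.5%). The share of low members was thus above that of all features in the main setting and below it in each of these. Those at least 16-fold above, a call added after seeing the data, stayed between 12 and 26 under these settings. Their share ran from 7.14% with at least 1 count (against 0.541% of all features) to 70.3% in the second strand column (against 1.28%). The ratio of the members' shares (5.10) was 38.8 in unique pairs outside the 45S units, 4.26 with all counts as the denominator, 11.5 when the 2 features highest in SFB-Ku80 were taken out of the denominator, 7.29 with at least 100 counts, 3.30 without the most counted member and 2.19 without the 5 most counted. It was above 1 in each of these, but 0.852 without the 18 members at least 16-fold above, an alternative added after seeing the data. The cause was not tested, except that the stricter filter and the unique pairs leave fewer features. With 25 to 46 counts, a member at 0 in the control has a lower bound only, and depth limits the ratios of members under 20 counts.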
